A study of Mus musculus with 6 samples.

Results

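The regions described here were 1158 promoter regions that held a Lsd1 peak in C2C12 cells overexpressing LSD1 and no peak in either wild-type library. C2C12 is a mouse myoblast line that can be driven towards muscle or towards brown fat. The regions were chosen by the peak lists themselves: all peaks of the 3 libraries were pooled, peaks that shared at least 1 bp were merged into 56729 regions, and a region was kept when it held peaks of the LSD1(OE) library only and its centre lay within 2000 bp of a curated RefSeq transcription start site (TSS) of mm10. They made up 12.7% of the 9131 promoter regions with an LSD1(OE) peak. That share follows from the selection and is not read as a result. A further 10642 LSD1(OE)-only regions lay outside promoters and are not described.

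Lsd1 occupancy was measured by ChIP-seq in 3 conditions, with 1 ChIP library and 1 input library each, all on day 1 of differentiation. Wild-type cells were kept in myogenic medium with horse serum or in adipogenic medium with isobutylmethylxanthine, indomethacin, dexamethasone, insulin, T3 and rosiglitazone. The LSD1(OE) cells were kept in the same adipogenic medium; they carried Flag-tagged LSD1 in the lentiviral vector pSlik-Neo, had been selected with G418 and were induced with doxycycline. The sources used here list doxycycline for this line only, so the level of LSD1, the transduced and selected line and the inducer cannot be told apart. With 1 ChIP library per condition no difference between conditions has a replicate check, and no test between conditions was made. The ChIP libraries held 46155625 (myogenic), 63915769 (wild-type adipogenic) and 55193310 (LSD1(OE)) tags after duplicates were limited. Their lists held 43426, 18893 and 33533 peaks.

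Lsd1 is a histone demethylase that removes methyl groups from mono- and dimethylated lysine 4 of histone H3. It works mostly within repressor complexes that contain the REST corepressor and histone deacetylases, and sequence-specific factors bring it to promoters. Many promoters of mammals lie in CpG islands, stretches where the dinucleotide CG has not been depleted, and such promoters are often those of broadly expressed genes. Promoters poor in CG are more often those of tissue-restricted genes.

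To show what kinds of sequence lay beneath the strongest LSD1(OE)-only peaks, the 300 bases around the peak summit are given for the 2 CpG-rich and the 2 CpG-poor regions with the highest scores (mm10, plus strand). Capitals mark each CG dinucleotide. The windows lay at chr17:31057479-31057778 (Abcg1), chr15:11037121-11037420 (Rxfp3), chr9:40321478-40321777 (Gramd1b) and chr19:4498198-4498497 (2010003K11Rik), and held 28, 19, 2 and 9 CG dinucleotides.
Abcg1: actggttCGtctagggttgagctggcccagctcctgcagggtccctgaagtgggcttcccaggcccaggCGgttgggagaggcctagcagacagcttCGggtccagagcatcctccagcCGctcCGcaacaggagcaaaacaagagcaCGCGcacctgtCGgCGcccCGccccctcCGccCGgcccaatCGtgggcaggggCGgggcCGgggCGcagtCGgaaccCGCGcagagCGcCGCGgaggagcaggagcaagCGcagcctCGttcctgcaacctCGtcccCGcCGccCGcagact
Rxfp3: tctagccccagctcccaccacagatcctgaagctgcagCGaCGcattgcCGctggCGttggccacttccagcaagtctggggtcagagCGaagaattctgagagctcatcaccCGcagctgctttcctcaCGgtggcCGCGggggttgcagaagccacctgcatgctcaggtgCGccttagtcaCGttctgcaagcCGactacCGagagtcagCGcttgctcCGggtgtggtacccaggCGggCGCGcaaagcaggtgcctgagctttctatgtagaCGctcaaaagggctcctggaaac
Gramd1b: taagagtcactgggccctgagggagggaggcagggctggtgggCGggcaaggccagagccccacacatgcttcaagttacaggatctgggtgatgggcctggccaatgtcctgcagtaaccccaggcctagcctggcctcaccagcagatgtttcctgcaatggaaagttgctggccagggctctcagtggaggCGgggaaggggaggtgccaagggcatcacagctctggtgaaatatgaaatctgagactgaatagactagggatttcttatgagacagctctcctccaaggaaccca
2010003K11Rik: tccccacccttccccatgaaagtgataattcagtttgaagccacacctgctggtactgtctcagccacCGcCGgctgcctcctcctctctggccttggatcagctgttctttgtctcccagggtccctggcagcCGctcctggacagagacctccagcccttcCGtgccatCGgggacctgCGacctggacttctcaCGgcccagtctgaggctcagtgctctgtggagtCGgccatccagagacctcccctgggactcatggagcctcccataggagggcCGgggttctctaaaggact
The CG dinucleotides were spread along the Abcg1 window with the densest run in its right part, whereas the Gramd1b window had 2 in all. Both the Abcg1 and the Gramd1b window held the GC box GGGCGG and the letters CCAAT on one of the strands, and the Rxfp3 and 2010003K11Rik windows held the E-box CAGCTG. A match of letters is a description and not a binding site.

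The peaks in these regions were weak. MACS, the peak caller, gave each peak a p-value against the input; the score is its −log10 multiplied by 10, and a peak entered a list at a score of 50. Over the 1158 regions the score had a median of 71.6 and a range from 50.02 to 684.65, and each region held exactly 1 LSD1(OE) peak. In the 7973 LSD1(OE) promoter regions that also held a wild-type peak (shared regions), the strongest LSD1(OE) peak had a median score of 215. A score of at least 100 was reached by 323 of 1158 regions (27.9%, 95% Wilson interval 25.4 to 30.5%) against 80.3% of the shared regions, and 362 regions (31.3%) scored under 60 against 5.84%. The median peak held 43 ChIP tags, with a range from 30 to 478, and was 763 bp long, against 90 tags and 1230 bp in the shared regions. Because the rule keeps what the wild-type lists lack, these values describe the selection and were not tested. All intervals cover counting error only.

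**Figure D1:**
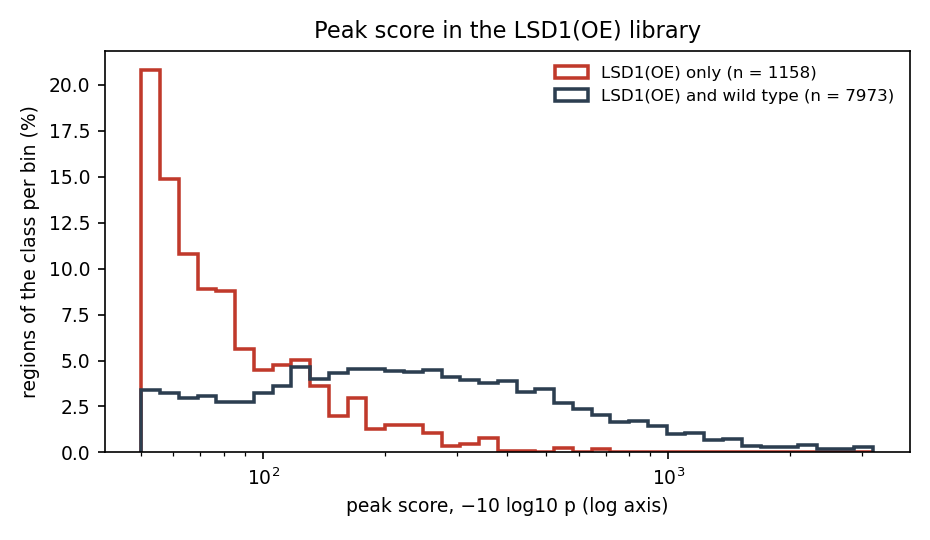
Score of the strongest LSD1(OE) peak (log axis) in the LSD1(OE)-only promoter regions (n = 1158) and in promoter regions shared with a wild-type library (n = 7973), as the percentage of each class per bin. The LSD1(OE)-only regions pile up just above the threshold of 50, around a median of 71.6, while the shared regions spread around a median of 215.

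A missing peak is not a missing signal, so the tag density at which each wild-type library would have yielded a peak was worked out. For a peak of 763 bp over the genome-wide input level, a score of 50 required 34 tags in the myogenic library, 48 in the wild-type adipogenic library and 39 in the LSD1(OE) library. Per kb and per 1000000 ChIP tags these limits were 0.965, 0.984 and 0.926, so the 3 libraries needed nearly the same density. The genome-wide level gave the deposited score within 2% for 86.3% of the 1158 peaks, 77.4% of the myogenic peaks and 68.0% of the wild-type adipogenic peaks, and where the local input was higher the true limit was higher. The LSD1(OE)-only peaks had a median density of 1.04 in the same unit (quartiles 0.999 and 1.12). Relative to the higher of the 2 wild-type limits at the region's own length, the median was 1.05, with quartiles of 0.980 and 1.19. Thus 443 regions (38.3%, 35.5 to 41.1%) exceeded 1.1 times the genome-wide limit of both wild-type libraries, 274 (23.7%, 21.3 to 26.2%) exceeded 1.2 times it, and 49 (4.23%, 3.22 to 5.55%) exceeded 1.5 times it. Some of them scored low for their density, such as Hdhd3 (2.84 times the adipogenic limit, score 65.7). At such regions the genome-wide limit may be too low. A density above the limits means only that an equal wild-type density would have been called over the genome-wide input. The lists hold no wild-type tag counts at the 1158 regions. At none of them do the lists separate an absent wild-type signal from one just under the threshold. In bulk chromatin, fewer cells with bound Lsd1 and less Lsd1 per cell cannot be told apart.

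Wild-type peaks often lay close by. Either wild-type library had a peak within 500 bp of 295 regions (25.5%, 23.0 to 28.1%), within 2000 bp of 526 (45.4%, 42.6 to 48.3%) and within 10000 bp of 764 (66.0%, 63.2 to 68.6%). The myogenic library supplied most of them, with a peak within 2000 bp of 504 regions against 282 for the wild-type adipogenic library, whose list was the shortest. At the edge of the rule, the regions of Ephx1 and Zbtb46 (scores 74.6 and 112) were separated from a wild-type peak by 1 bp and that of Acad12 (57.4) by 2 bp; these were picked out for their gaps. Regions with a wild-type peak within 2000 bp lay within 500 bp of their TSS in 19.4% of cases (16.2 to 23.0%), and 12.5% of them were CpG-rich. The 394 regions with no wild-type peak within 10000 bp lay within 500 bp of the TSS in 62.7% (57.8 to 67.3%), and 39.3% were CpG-rich. Of these isolated regions, 100 also exceeded 1.2 times both wild-type limits. The rule bars overlap with wild-type peaks, and most wild-type promoter regions lay near the TSS. It therefore bears on the contrast in position and CpG content, which was not tested.

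**Figure D2:**
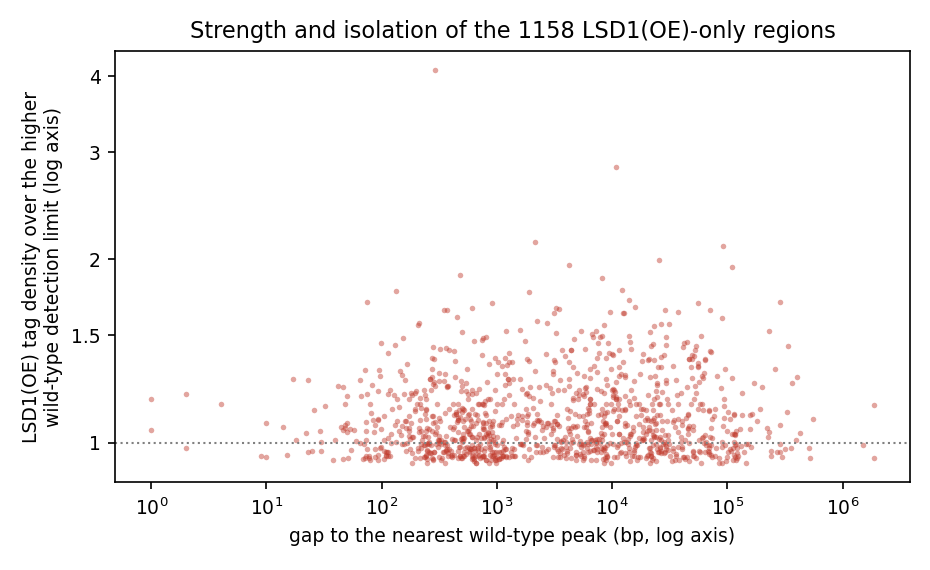
Each point is 1 of the 1158 LSD1(OE)-only promoter regions, placed by the gap to the nearest wild-type peak (bp, log axis) and by its LSD1(OE) tag density divided by the higher of the 2 wild-type detection limits (log axis; dotted line at 1). The median on the vertical axis is 1.05, with quartiles of 0.980 and 1.19, and 526 lie within 2000 bp of a wild-type peak.

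The 1158 regions belonged to 1100 genes, or 4.20% of the 26180 genes with a curated TSS. Of these genes 1047 had 1 such region, 49 had 2, 3 had 3 and Sh3kbp1, which encodes an adaptor protein of receptor endocytosis, had 4. At 501 of the 1100 genes (45.5%, 42.6 to 48.5%) another promoter region of the same gene did hold a wild-type peak, in the myogenic library at 491 and in the wild-type adipogenic library at 283. The share of all genes with a wild-type promoter region was 47.3%. At the other 599 genes (54.5%, 51.5 to 57.4%) no wild-type region was centred within 2000 bp of any TSS. The regions of these genes lay within 500 bp of the TSS in 59.6% (55.7 to 63.3%) and were CpG-rich in 34.7%, against 19.4% and 12.1% where the gene had a wild-type region elsewhere. The rule bars overlap with a wild-type peak, and 79.3% of the shared and 63.8% of the wild-type-only promoter regions lay within 500 bp of the TSS. It therefore bears on this contrast, which was not tested.

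Nearest genes were protein-coding for 991 regions (85.6%, 83.4 to 87.5%), lncRNA genes for 121 (10.4%, 8.82 to 12.3%) and microRNA genes for 33 (2.85%, 2.04 to 3.98%). In the shared regions the shares were 92.9%, 5.56% and 0.865%. For a microRNA gene the TSS used here is the start of its RefSeq record, which need not be the start of the primary transcript. These regions are therefore not known to be promoters of the microRNAs.

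The regions were spread more widely around the TSS than other promoter regions, a description that was not tested because position was part of the rule. Their centre was within 500 bp of the TSS in 477 of 1158 (41.2%, 38.4 to 44.1%), against 79.3% of the shared regions and 63.8% of the 4231 promoter regions with wild-type peaks only. The outer band from 1500 to 2000 bp held 20.4% of them, against 3.55% and 12.2%. The centre was upstream of the TSS in 42.8%, against 40.1% of the shared regions. It lay in an intron in 45.1% (42.2 to 48.0%), outside transcripts in 32.3%, in a UTR or noncoding exon in 14.9% and in a coding exon in 7.77%, whereas 29.6% of the shared regions were centred in an intron. The window of 2000 bp cut through this outer band: the regions of Phlda3, Tha1 and Rnf10 were just inside, centred at 1997.5, -1993.5 and 1991.5 bp from the TSS (negative values are upstream), with scores of 50.34, 76.51 and 50.41. LSD1(OE)-only regions just outside were centred at 2004 bp (2310043L19Rik), -2005 bp (Tiam2) and 2007.5 bp (Ptprm), with scores of 75.58, 54.33 and 54.54. The regions with the lowest score, at Cul3, Gm12841 and Chpf2, all had 34 tags and a score of 50.02.

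**Figure D3:**
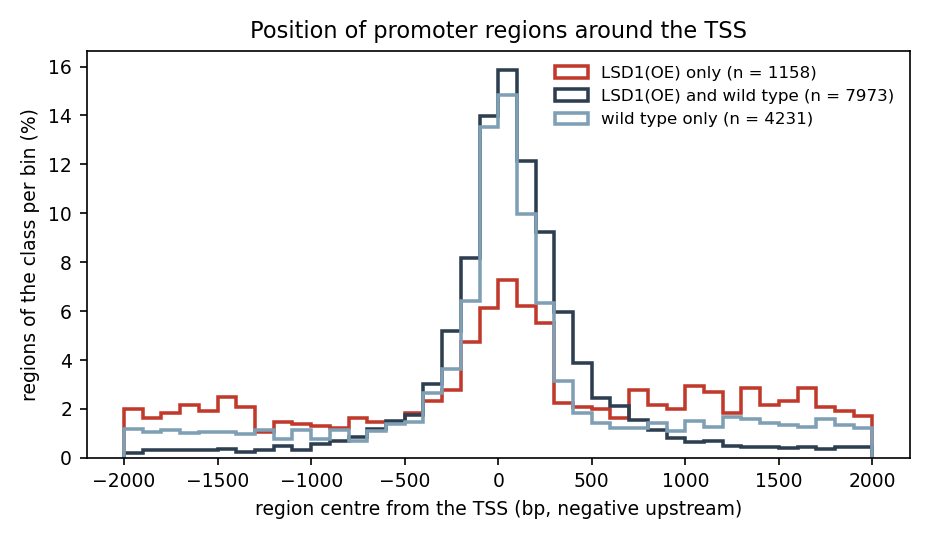
Position of the region centre relative to the TSS (bp, negative upstream) in bins of 100 bp, as the percentage of each class. The LSD1(OE)-only regions (n = 1158) have a lower summit at the TSS and a flat part out to 2000 bp on both sides, with 41.2% within 500 bp against 79.3% of the regions shared with wild type (n = 7973) and 63.8% of those with wild-type peaks only (n = 4231).

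LSD1(OE)-only promoter regions were mostly poor in CpG. A region was counted as CpG-rich when the observed number of CG dinucleotides in the 500 bp at its centre was at least 0.6 of the number expected from its C and G. By this measure, which the rule did not use directly, 282 of 1158 regions were CpG-rich (24.4%, 21.97 to 26.9%), against 5893 of 7973 shared regions (73.9%) and 2109 of 4231 wild-type-only regions (49.8%). The difference exceeded counting error in both comparisons (two-sided Fisher's exact test across regions, odds ratio 0.114, adjusted p = 7.53e-232, and odds ratio 0.324, adjusted p = 3.53e-56, Benjamini-Hochberg over 4 tests). These tests compare regions called in single libraries, and neighbouring regions are not independent. The rule also keeps only regions without a wild-type peak, so its selection bears on CpG content indirectly. Of the LSD1(OE)-only regions with a wild-type peak within 2000 bp, 12.5% were CpG-rich. Of those with none within 10000 bp, 39.3% were. How much of the difference comes from the selection was not tested. The median CpG ratio was 0.308 against 0.771 and 0.599. The difference was also present near the TSS by Fisher's exact test, where 230 of 477 LSD1(OE)-only regions within 500 bp were CpG-rich (48.2%) against 83.7% of the shared and 71.6% of the wild-type-only regions (odds ratios 0.181 and 0.369, adjusted p = 6.95e-64 and 2.62e-22). Among regions with an LSD1(OE) score under 100, where the LSD1(OE) peaks of both classes were weak, 21.1% against 70.2% of the shared regions were CpG-rich (odds ratio 0.113, Fisher's exact test, adjusted p = 1.72e-121). The shared regions there still held a wild-type peak of any score, so this subset does not remove the selection.

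**Figure D4:**
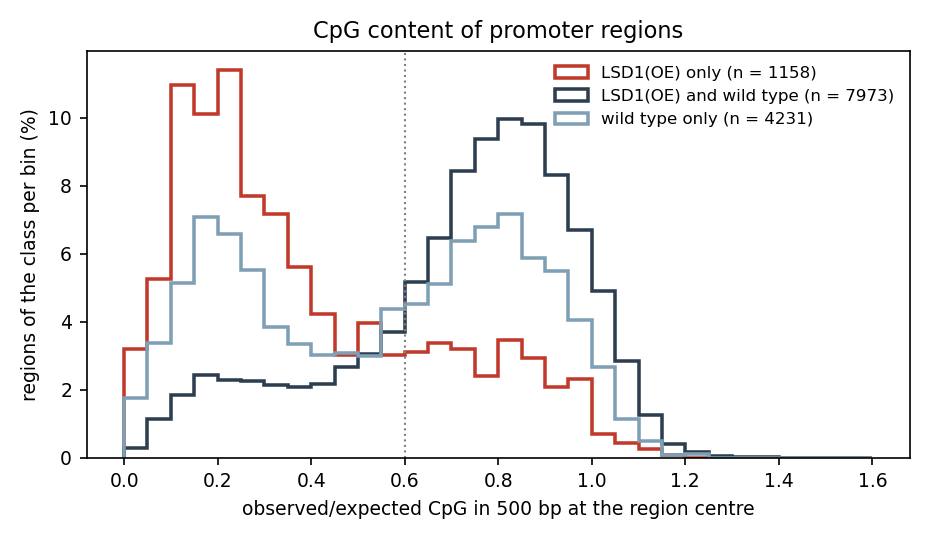
Ratio of observed to expected CG dinucleotides in the 500 bp at the region centre, as the percentage of each class per bin of 0.05; the dotted line marks 0.6. The LSD1(OE)-only regions (n = 1158, median 0.308) lie mainly left of the line, the regions shared with wild type (n = 7973, median 0.771) mainly right of it, and those with wild-type peaks only (n = 4231, median 0.599) on both sides.

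Divergent starts were also less common. The TSS of another gene on the opposite strand lay within 1000 bp of the region's TSS for 103 LSD1(OE)-only regions (8.89%, 7.39 to 10.7%), against 13.8% of the shared regions (odds ratio 0.612, adjusted p = 3.22e-06, the same family of Fisher's exact tests) and 12.3% of the wild-type-only regions (odds ratio 0.694, adjusted p = 0.00108). Among regions with a score under 100 the shares were 9.22% and 12.8% (odds ratio 0.693, Fisher's exact test, adjusted p = 0.00987). The same selection on a wild-type peak remained there. Within the LSD1(OE)-only regions, the 282 CpG-rich ones differed from the 876 CpG-poor ones in place: 81.6% (76.6 to 85.7%) lay within 500 bp of the TSS against 28.2% (25.3 to 31.3%). Scores of at least 100 were found in 37.6% of the CpG-rich and 24.8% of the CpG-poor regions.

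Short motifs in the 300 bp at the summit, counted on either strand, varied with the CpG content. The GC box GGGCGG occurred in 24.9% of the 1158 windows, 58.4% of the shared windows and 35.7% of 32851 RefSeq promoters of the same length. Within the CpG-rich windows it occurred in 62.4% and 65.9% of the LSD1(OE)-only and shared regions, and within the CpG-poor windows in 12.8% and 37.4%. The Ets core CCGGAA occurred in 10.6% against 20.4% and 14.9%, and the Nrf1-type letters GCGCATGC in 1.04% against 3.34% and 2.71%. TATAAA occurred in 8.20% of the windows, 3.85% of the shared windows and 13.6% of all promoters. The E-box CAGCTG, the type bound by myogenic factors, occurred in 22.1%, against 19.03% of the shared windows and 16.3% of all promoters, and in CpG-poor windows in 23.1% against 26.3%. The AP-1 letters TGANTCA occurred in 9.76% against 6.67% and 7.81%, and among CpG-poor windows in 11.8% against 14.6%. The half-site AGGTCA of nuclear receptors (15.2, 11.7 and 16.3%), GGAATG of Tead factors (13.4, 11.4 and 14.7%), CCAAT (30.4, 30.1 and 37.4%), the E-box CACGTG (5.70, 6.87 and 7.15%) and TGACGTCA (0.432, 2.17 and 1.79%) completed the set, in the order LSD1(OE)-only, shared and all promoters. The sets were not tested, and motifs that share letters can overlap.

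The strongest regions lay mostly at genes without a wild-type promoter region, as did 54.2% of all 1158 regions. The 15 regions with the highest score spanned 347.15 to 684.65. At 12 of their 15 genes (80.0%, 54.8 to 93.0%) no wild-type region was centred within 2000 bp of a TSS. Gramd1b encodes a sterol transfer protein of the endoplasmic reticulum. Its region (chr9:40320254-40322142, centred 125 bp downstream of the TSS in a UTR or noncoding exon) had 178 tags, a density of 1.71 and a score of 685, which was 2.10 times the adipogenic limit. The nearest wild-type adipogenic peak was 91283 bp away and the nearest myogenic peak 133133 bp, although another TSS of the gene had a myogenic region. The region of 2010003K11Rik (chr19:4497269-4498964, centred in an intron 466.5 bp downstream of the TSS) had 164 tags and a score of 658, with a myogenic peak 2128 bp away. Abcg1, a cholesterol efflux transporter, had a CpG-rich region (chr17:31057049-31058791, centred in an intron 226 bp downstream) with 157 tags and a score of 569. Its fold enrichment, 4.46, was the highest of the 1158. The nearest myogenic peak was 25285 bp and the nearest adipogenic peak 237021 bp away.

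Rxfp3, a receptor of relaxin-3, carried 181 tags and a score of 565 in a region centred in its coding exon (chr15:11036146-11038266). A myogenic peak lay 4207 bp and an adipogenic peak 53633 bp away. Dock10, a guanine nucleotide exchange factor, had 212 tags over 3010 bp centred in an intron (chr1:80755800-80758809, score 531). Its nearest wild-type peaks lay 284818 bp (myogenic) and 736433 bp (adipogenic) away. Of the 5 strongest regions, those of Gramd1b, Abcg1 and Dock10 had no wild-type peak within 10000 bp. The region of the predicted gene Gm10804 (score 448) lay 134 bp from a myogenic and 205 bp from an adipogenic peak, and that of Pde4b, a cAMP phosphodiesterase (score 349.59), 75 bp from an adipogenic peak, so those were neighbours of wild-type peaks.

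Further regions among the 15 lay at genes of plasma proteins, receptors and other products. Orm1, an acute-phase plasma protein, had 158 tags and a score of 396 (chr4:63343059-63345248), with an adipogenic peak 3273 bp away. Camp, the cathelicidin antimicrobial peptide, had 106 tags in 1226 bp and a score of 365.93, and the nearest wild-type peak was 12179 bp away. Islr, a secreted protein of stromal cells, had a score of 347 and a density of 1.47. Ptgfr, the receptor of prostaglandin F, had 130 tags just upstream of the TSS (centre at -130 bp) with a score of 351. Abt1, an activator of basal transcription, had a score of 353 with wild-type peaks 5337 and 5435 bp away.

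Ugt1a7c and Ugt1a6b, alternative starts of the locus for UDP-glucuronosyltransferases that conjugate lipophilic compounds, had scores of 377 and 360.36 on neighbouring positions of chromosome 1. The members of that family are similar in sequence and share exons, so how reads were placed among them is uncertain. Further long regions lay at the predicted genes Gm7104 (2580 bp, 186 tags, score 89.8) and Gm26698 (2207 bp, score 271). The longest region, 4286 bp at Hdhd3, held 478 tags, the most of all, but scored 65.7, with 1.75-fold enrichment. The densest, 3.63 tags per kb and per 1000000 ChIP tags at Kpna1, picked out for that value, scored 151 and lay 293 bp from a myogenic peak. In both, the score was low for the density; MACS scores a peak against the highest of the local and genome-wide background, and the local input is not part of the list.

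Beyond 100000 bp from any wild-type peak lay 69 regions. The 5 strongest of these were at Dock10, described above, Fgf10 (83 tags, density 1.38, score 236), Ugt8a (102 tags, score 227), Adgrf2 (151 tags, score 209) and Smpdl3a (104 tags, score 195). Fgf10 is a growth factor that acts on epithelium and also on fat precursors. Its region was centred in a UTR or noncoding exon 522.5 bp downstream of the TSS (chr13:118714678-118715765), with the nearest wild-type peak 228555 bp away. Ugt8a, the galactosylceramide synthase of myelin, had a CpG-rich region centred in an intron. The Adgrf2 window was masked as repeat over 63.4% of its bases, and reads in repeats may be placed with less certainty.

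At muscle genes the LSD1(OE)-only regions were mostly weak. Of 30 myogenic transcription factors 4 had one, among them Mef2b, Six5 and Tcf4, with a median score of 62.5. A wild-type promoter region was also present at 3 of these 4 genes. The share of genes with an LSD1(OE)-only region was 4.20% over all genes. Over the 8327 genes with any LSD1(OE) promoter region it was 13.2%, against 4 of 19 here. Mef2b, a MADS-box partner of the myogenic factors, had 47 tags and a score of 66.2 at chr8:70152249-70153123, centred at -75 bp from the TSS, with a myogenic peak 4939 bp and an adipogenic peak 34064 bp away. Its density was 1.03 times the adipogenic limit. Myog (34 tags, score 55.2), Cebpa (262 tags, score 797) and Pparg (39 tags, score 56.5) had LSD1(OE) regions that a myogenic but no wild-type adipogenic peak shared, and those of Mef2d and Glis1 held peaks of all 3 libraries, so none of these 5 was LSD1(OE)-only. Of 53 sarcomere and contraction genes Tpm1 (score 174, 431 bp from an adipogenic peak) and Chrnd (score 58.1) had one.

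Of 62 adipocyte regulators and markers 4 had an LSD1(OE)-only region (6.45%, against 4.20% of all genes), and these 4 were 11.1% of the 36 list genes with any LSD1(OE) promoter region, against 13.2%. Their scores ran from 51.2 to 57.6, and none of the 4 genes had a wild-type promoter region. Elovl3, a fatty acid elongase of brown fat, had 38 tags and a score of 57.5 (chr19:46131520-46132221, centred at -26.5 bp), with the nearest wild-type peak 8316 bp away. Plin5, a lipid droplet protein, had a score of 57.6, Ppara, a nuclear receptor of fatty acid oxidation, 53.5, and Nr1h3, which encodes the sterol receptor LXRalpha, 51.2. Density was 0.978 of the adipogenic limit at Elovl3, 0.989 at Plin5, 1.01 at Ppara and 1.16 at Nr1h3, so at Elovl3 and Plin5 an equal density would not have reached a peak in the wild-type adipogenic library. Ppara and Nr1h3 scored low for their density. At Nr1h3, 58 tags in 974 bp scored 51.2, whereas 58 tags in 948 bp scored 109 at Hoxc4. At Ppara, 41 tags in 734 bp scored 53.5, whereas 41 tags in 723 bp scored 67.2 at Ttc9b. The genome-wide limit may thus be too low at Ppara and Nr1h3, and their ratios do not show that wild type would have yielded a peak.

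Of 48 nuclear receptors 5 had a region, led by Esrra (126 tags, score 263), an orphan receptor of mitochondrial genes, and Rara (score 132), a retinoic acid receptor. Both lay close to wild-type peaks, at 113 bp and 160 bp. Of 26 clock genes 4 had one, among them Fbxl21 (score 178), whose product targets cryptochromes, Npas2 (135), a partner of Bmal1, and Hlf (72.9). The list of 66 cell cycle genes had 9, against 34 with any LSD1(OE) promoter region. Ccnb1, the mitotic cyclin, had 88 tags and a score of 208, with wild-type peaks 41119 bp or more away, whereas Cdc20 (89.5), Wee1 (72.7) and Tfdp1 (78.1) were weaker. The Cdc20 region lay 439 bp from a myogenic peak, that of Wee1 73 bp from an adipogenic peak and that of Tfdp1 11109 bp from a myogenic peak. The shares of nuclear receptor, clock and cell cycle genes with a region were 10.4, 15.4 and 13.6%, against 4.20% of all genes. Counted over the genes with any LSD1(OE) promoter region they were 23.8, 21.1 and 26.5%, against 13.2%. A wild-type promoter region was also present at 3 of the 5 nuclear receptor genes, 1 of the 4 clock genes and 5 of the 9 cell cycle genes. The lists are short and no list was tested.

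In signalling pathways, of 63 genes of the canonical Wnt pathway 6 had a region, among them the agonist Rspo2 (119 tags, density 1.60, score 138, nearest wild-type peak 8120 bp away), the ligand Wnt4 (score 107, 172 bp from a myogenic peak), the transcription factor Tcf7 (75.7) and the scaffold Apc (61.2). Rspo2 scored low for its density: its 119 tags in 1348 bp scored 138, whereas 99 tags in 1442 bp scored 229 at Foxd1. Of 57 TGF-beta and BMP genes 4 had one: the procollagen protease Bmp1 (157), the activin subunit Inhbb (99.6), the ligand Bmp6 (54.2) and the receptor Acvr1c (52.9). Of 37 Notch pathway genes the receptor gene Notch3 (68.8) had one. Of 46 genes of Lsd1 complexes and recruiting repressors Bcl6, a repressor (score 113), and Mbd2, a reader of methylated DNA (75.3), had one, both within 1000 bp of a wild-type peak. Of 52 histone lysine methylation enzymes Kmt5c (score 137), Ezh1 (61.8) and Setdb1 (52.4) had one. Over the genes with any LSD1(OE) promoter region the shares were 17.6% for the Wnt pathway (6 of 34), 9.52% for TGF-beta and BMP (4 of 42), 4.00% for Notch (1 of 25), 6.90% for Lsd1 complexes (2 of 29) and 9.09% for the methylation enzymes (3 of 33), against 13.2% for all such genes. A wild-type promoter region was also present at 4 of the 6 Wnt genes and 2 of the 4 TGF-beta and BMP genes. The same held for Notch3, both genes of Lsd1 complexes and 2 of the 3 methylation enzymes.

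Of 61 neuronal genes 3 had a region (Dlg4, score 121; Camk2b, 103; Nefm, 99.8), and of 40 blood and immune genes 2, Spi1 (score 155), the myeloid factor PU.1, and Lyz2 (54.8), a lysozyme. Only 4 of those 40 genes had any LSD1(OE) promoter region. Of 1461 olfactory and vomeronasal receptor genes 2 had one, with scores of 57.5 (Olfr429) and 55.8 (Olfr432). Among gene families taken by name, 22 of 391 solute carriers had one, led by Slc35a2 (162) and Slc16a14 (140.35), 7 of 67 translation factors, led by Eif3b (83.2), 4 of 39 Hox genes, led by Hoxc4 (109), and 27 of 1048 microRNA genes, led by Mir5618 (133) and Mir7652 (124). The microRNA positions refer to the start of the RefSeq record. The Mir5618 region was centred in an intron 1944 bp downstream of that start, 491 bp from a myogenic peak. Of 44 collagens Col1a2 (score 164), a chain of type I collagen, Col6a1 (138) and Col6a2 (115) had one. None of the 3 genes had a wild-type region centred within 2000 bp of a TSS. The Col1a2 region nevertheless lay 1279 bp from an adipogenic and 2018 bp from a myogenic peak. Wild-type peaks were 15531 bp or more from the Col6a1 region and 6433 bp or more from the Col6a2 region of that score. Of 398 Zfp genes 9 had one (2.26%), of 103 histone genes 1, and of 88 cytosolic ribosomal proteins 1, Rpl35 (141). No LSD1(OE)-only region was found at 78 mitochondrial ribosomal proteins, 30 Mediator subunits, 28 RNA polymerase subunits, 18 aminoacyl-tRNA synthetases, 17 Klf genes and 58 clustered protocadherins, of which 32, 14, 12, 9, 11 and 1 had any LSD1(OE) promoter region. Over all genes the share was 4.20%, and over genes with any LSD1(OE) promoter region 13.2%. Counted over the latter, list shares were 14.3% (neuronal), 15.6% (solute carriers), 21.9% (translation factors), 28.6% (Hox), 30.3% (microRNA) and 21.4% (collagens). For Zfp, histone and ribosomal protein genes they were 6.21, 2.94 and 2.78%. The blood and olfactory lists had only 4 and 2 such genes. A wild-type promoter region was also present at 2 of the 3 neuronal genes, 11 of the 22 solute carriers and 5 of the 7 translation factors. It was present at 1 of the 4 Hox genes and 6 of the 27 microRNA genes. Many lists are short and none was tested.

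Genes that the study had found to respond inversely to Lsd1 knockdown and overexpression by RNA-seq formed a further pair of lists. They were chosen by the study on RNA of LSD1(OE) cells and are not independent of that line. Of 275 genes higher on overexpression and lower on knockdown, 10 had an LSD1(OE)-only region (3.64%, against 4.20% of all genes), and 160 had any LSD1(OE) promoter region. The 10 genes were 6.25% of those 160, against 13.2% over all genes with any LSD1(OE) promoter region. The strongest were Cnot6l (88 tags, score 186), a deadenylase subunit whose region lay 276 bp from a myogenic peak, Aopep (122), Mtss2 (102) and Fam13c (93.1). Of 73 genes lower on overexpression, 5 had one (6.85%), with the highest scores at Prg4 (105), a lubricant proteoglycan, Camk2n2 (103), an inhibitor of CaM kinase II, and Nefm (99.8), a neurofilament chain. These 5 genes were 9.09% of the 55 list genes with any LSD1(OE) promoter region, against the same 13.2%. Prl2c3 (53.1) belongs to a family of near-identical prolactin-like genes and 60.4% of its window was masked as repeat, so its reads are uncertain.

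Along the chromosomes the LSD1(OE)-only share of LSD1(OE) promoter regions ran from 7.81% (40 of 512) on chromosome 8 to 18.99% (64 of 337, 15.2 to 23.5%) on chromosome 12 and 32.7% (34 of 104, 24.4 to 42.2%) on the X chromosome. Over all chromosomes it was 12.7%. The X chromosome also had the weakest shared regions, with a median LSD1(OE) score of 98.7 against 149.55 to 313.27 on the other chromosomes, and 60.7% of its LSD1(OE) regions outside promoters were LSD1(OE)-only against 42.1 to 54.9% elsewhere. The part of signal strength in these shares was not tested. On the X, the LSD1(OE)-only regions had a median score of 67.4, and 8 of 34 reached a score of 50 without the scaling of ChIP tags.

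**Figure D5:**
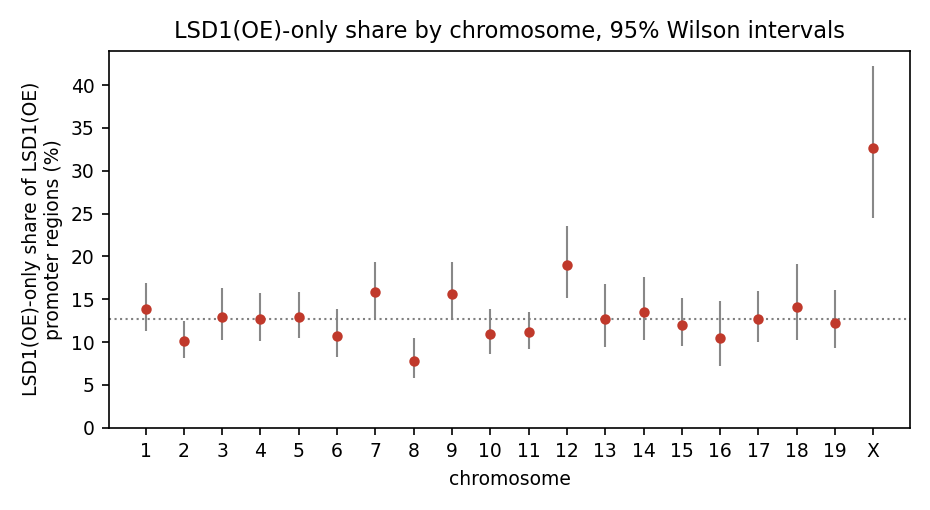
LSD1(OE)-only promoter regions as a percentage of the promoter regions with an LSD1(OE) peak, by chromosome, with 95% Wilson intervals for counting error; the dotted line is the share over all chromosomes, 12.7%. The X chromosome stands highest at 32.7% and chromosome 8 lowest at 7.81%.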

How the data were processed

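The data were Lsd1 ChIP-seq peak lists of C2C12 cells in 3 conditions, grouped by the sample titles, with 1 ChIP and 1 input library each. The authors mapped single reads to mm10 with Bowtie2 and called peaks library by library, with the matching input as control, at a p cut-off of 1e-05, using MACS (1.4.2 per the file headers, 1.41 per the submitters' processing notes). The deposited columns hold the count of ChIP tags per peak, without normalization, a score (−log10 of the Poisson p-value, multiplied by 10), a fold enrichment (a ratio to the local background) and the FDR in percent. The authors' run scaled the ChIP tags up to the larger input, by 1.90, 1.28 and 1.82 (myogenic, adipogenic, LSD1(OE)), before the p-value was computed. The highest FDR in the 3 lists was 0.73%, so no peak was dropped.

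Peaks were merged and assigned to the nearest of 31647 curated RefSeq TSSs (GRCm38.p6, the assembly of mm10), and sequence was read from the same assembly. Tag density is tags per kb of peak and per 1000000 filtered ChIP tags. The detection limit is the smallest tag count whose scaled value gives a score of 50 in a Poisson test against the input tags per bp of an effective genome of 1.87e+09. Classes were compared by two-sided Fisher's exact tests on the 2 features the rule did not use directly, with Benjamini-Hochberg adjustment over 4 tests, and the rest are counts with 95% Wilson intervals. The regions and the 45 gene lists were chosen with earlier results of these data known. Of 992 listed names 18 were matched by an older symbol and 1 was not matched. The 143 named regions were the 15 of highest score, up to 4 per list, the 3 lowest and 3 nearest inside the window, the 5 longest, the 5 of highest score more than 100000 bp from a wild-type peak, and genes of the study's own ChIP-seq account; others are said to be picked for their values, and a few of the named regions are not reported here. The steps were tested on simulated data. Python 3.11.15, NumPy 2.4.6, pandas 2.3.3, SciPy 1.17.1 and pyfaidx were used. The reads were not analysed here.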

Additional observations from a re-analysis of the deposited data

How the results depend on the processing

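The number of LSD1(OE)-only promoter regions, 1158, depended on the thresholds. It was 513 with an FDR of at most 0.1% in all lists, 669 with a score of at least 100 in all lists, 323 with that score asked of LSD1(OE) peaks only, 730 with equal numbers of the strongest peaks, 621 with ChIP tags not scaled up, 680 and 2288 with promoter windows of 1000 and 5000 bp, and 1848 with all RefSeq TSSs. As a share of LSD1(OE) promoter regions (12.7%) it was, in that order, 8.56, 9.94, 4.80, 10.8, 8.89, 8.48, 19.6 and 16.9%, and 9.39% with peaks up to 500 bp apart merged. The share of genes with no wild-type promoter region (54.5%) became 80.0, 75.8, 63.9, 77.6, 74.1, 79.6 and 34.0% under the same settings without the last, and 74.7% with merging. Stricter lists remove wild-type peaks too, so part of the regions kept there are not among the 1158. The odds ratio of CpG-rich regions against shared regions stayed between 0.0864 and 0.305 and that of divergent starts between 0.491 and 0.693, with adjusted p under 0.05 in Fisher's exact test in all 14 and 13 alternatives. Of the 143 named regions, 45 to 143 remained. No paired analysis was possible because each condition has 1 ChIP library, and for the same reason no library could be left out. Precision is limited by 30 to 478 tags per peak.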
